A study of Homo sapiens with 10 samples.

Results

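The YAP and TEAD transcription module was followed in C33A cells, and it was taken as 10 genes chosen by name: YAP1 and WWTR1 (the gene of TAZ), the 4 TEAD genes TEAD1, TEAD2, TEAD3 and TEAD4, and the target genes CCN1, CCN2, ANKRD1 and AMOTL2. The 10 genes were found by symbol among 63152 gene identifiers, of which 32119 had a read in any library and 17929 were tested. All 10 passed the filter on low counts. C33A is a human cervical carcinoma line that is deficient in BRG1 and BRM, the alternative ATPases of the SWI/SNF chromatin remodelling complexes. The cells had been transfected transiently for 48 h with the plasmid pOPRSVI (control), with BRG1 (BRG1-wt), with an ATPase-deficient BRG1 (BRG1-mut), with BRM (BRM-wt) or with an ATPase-deficient BRM (BRM-mut), giving 5 groups of 2 libraries of polyadenylated RNA. BRG1 and BRM were carried by different expression plasmids, neither of them pOPRSVI, so the plasmid cannot be told apart from the ATPase in a comparison with control or between BRG1 and BRM, whereas each wild type and its mutant shared a plasmid. The study reports slightly more protein of each wild type than of its mutant, so protein level and ATPase activity cannot be told apart between them. Since the transfection was transient, a change in fewer cells and a smaller change in more cells cannot be told apart in these bulk libraries.

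YAP and TAZ are transcriptional coactivators that do not bind DNA themselves. They enter the nucleus when the kinases of the Hippo pathway are inactive, and there they bind the TEAD proteins, which recognise the sequence GGAATG. Typical targets are the secreted matricellular proteins CCN1 (CYR61) and CCN2 (CTGF), the ankyrin repeat protein ANKRD1, and AMOTL2, an angiomotin family member that binds YAP and holds it in the cytoplasm as negative feedback.

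The libraries held between 27909432 and 39317975 reads, recovered from the deposited tables, and the 2 libraries of a group are called a and b because the tables carry no replicate number. SMARCA4, the BRG1 gene, had normalised counts of 47390 and 48046 in BRG1-wt and of 61017 and 53664 in BRG1-mut, against 1653 to 6726 in the other 6 libraries. SMARCA2, the BRM gene, had 191928 and 53800 in BRM-wt and 192283 and 101719 in BRM-mut, against 3.31 to 13.6 elsewhere, so the groups matched their labels and the BRM-wt libraries differed in BRM level. The epithelial markers KRT8 and KRT18 were present and were higher in the 4 libraries with a wild-type ATPase (KRT8 330 to 1011 against 47.2 to 202, KRT18 880 to 1316 against 123 to 445), EPCAM was at 18.6 to 46.4, and KRT19 (0 to 4.92) and CDH1 (1.86 to 11.6) were near 0. The leukocyte marker PTPRC was at 1149 to 2038 in every library, and the fibroblast genes COL1A1 and COL1A2 were at 3.01 to 83.6 and at 97.4 to 428. COL1A2 was above KRT8 in every control and mutant library and below it in every wild-type library. The part of these markers in the results was not tested. Differences from control also followed the GC content of the exons: over 50 bins of genes ordered by GC content, the median log2 difference ran from -0.11 to 0.53 in BRG1-wt, from -0.22 to 1.48 in BRG1-mut, from -0.56 to 0.13 in BRM-mut and from -0.07 to 0.01 in BRM-wt. The BRM-wt medians rest on 2 libraries that differed from each other. Of the 10 genes, YAP1, WWTR1, TEAD1 and ANKRD1 (GC content 42.1% to 43.3%) were higher in BRM-wt library a. The others (48.5% to 63.3%) were higher in library b. Whether the 2 libraries follow GC content in opposite directions was not tested. Values with the GC trend subtracted are given beside some of the differences.

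None of the 10 genes passed the test (limma, Benjamini-Hochberg adjusted p under 0.05 over all genes) in any of 10 comparisons. Among these 100 tests, 8 had an unadjusted p under 0.05. With limma-trend there were again 8 and 0 calls, with upper-quartile scaling 4 and 0 calls, with the GC trend subtracted 17 and 1 call, and with only the libraries of each comparison in the fit 13 and 1 call. Without BRM-wt library a, 18 of 50 tests had such a p and 3 were called, and without library b 12 of 50 and 1. Of all genes, 0.145% passed in BRG1-wt against control, 0% in BRG1-mut, 0.162% in BRM-wt and 0% in BRM-mut, all against control, while 0.0781% passed between BRG1-wt and BRG1-mut and 0.167% between BRM-wt and BRM-mut. These shares were unstable: the 26 calls of BRG1-wt and the 29 of BRM-wt against control became 0 without either control library, and 145 and 156 with the GC trend subtracted. When the 4 wild-type libraries were set against the 4 mutant ones, 1% of all genes passed, 179 of them higher (0.998%) and 1 lower (0.00558%) with the wild types. Of the 10 genes, 1, ANKRD1, had all 4 wild-type libraries above all 4 mutant libraries, as did 4.23% of all genes, and none had them all below (1.2% of all genes).

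The 8 tests with an unadjusted p under 0.05 fell in 5 comparisons. They were ANKRD1 in BRM-wt against control (where 4.39% of all genes had such a p) and in BRG1-wt against BRG1-mut (4.09%), ANKRD1 and AMOTL2 in BRM-wt against BRM-mut (4.66%), TEAD4 and AMOTL2 in BRG1-mut against BRM-mut (7.99%), and WWTR1 and ANKRD1 in wild types against mutants (6.36%). There were none in BRG1-wt (4.5%), BRG1-mut (1.63%) or BRM-mut (0.714%) against control, between the wild types (0.669%) or in the difference between BRG1 and BRM (0.926%). By group, 4 of the 10 genes had both BRG1-wt libraries above both control libraries (WWTR1, CCN1, ANKRD1 and AMOTL2, beside 18.1% of all genes) and 3 below (YAP1, TEAD1 and CCN2, beside 19.5%). For BRG1-mut these were 5 above (30.2%) and 3 below (25.5%), for BRM-wt ANKRD1 above (10.3%) and CCN2 below (9.45%), and for BRM-mut none above (10.8%) and AMOTL2 below (9.5%). WWTR1, CCN1, ANKRD1 and AMOTL2 lay above BRG1-mut in both BRG1-wt libraries (19.6% of all genes) and TEAD2 and TEAD4 below (28.5%). ANKRD1 and AMOTL2 lay above BRM-mut in both BRM-wt libraries (10.1%) and CCN2 below (10.2%). The comparisons with control share the 2 control libraries.

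**Figure D1:**
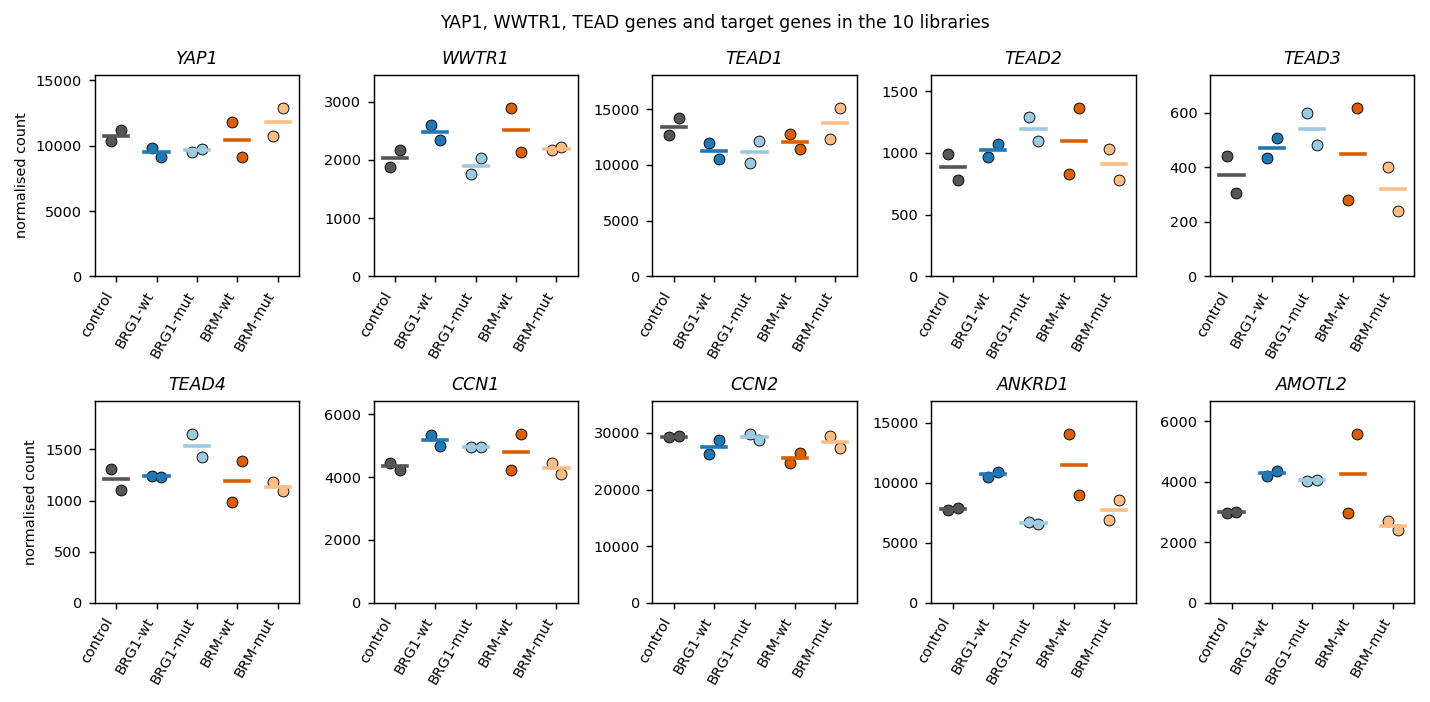
Normalised counts (y axis, from 0) of the 10 genes in the 10 libraries, by group (x axis); points are libraries and bars are the mean of the 2. ANKRD1 ran from 8972 to 14022 in the wild-type libraries and from 6597 to 8555 in the mutant ones, whereas the BRM-wt libraries lay apart for AMOTL2 (2982 and 5566) and TEAD3 (278 and 616).

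Per length, the secreted target CCN2 was far the most abundant of the 10. CCN2 averaged 11980 normalised counts per kb of exon over the 10 libraries (range 10540 to 12720), above 99.6% of the tested genes. ANKRD1 followed with 4960 per kb (3686 to 7834), and these ranks held in all 10 libraries. YAP1 (1654 per kb), CCN1 (1274) and TEAD1 (1151) came next, with YAP1 above CCN1 in 9 and CCN1 above TEAD1 in 7 of 10 libraries. AMOTL2 (560.1) and TEAD4 (554.4) could not be ordered, since AMOTL2 was higher in 4 of 10 libraries. TEAD2 (342.3) was above WWTR1 (266) in 7 of 10 libraries, and TEAD3 (141.1) was last in all 10. TEAD1 was the largest part of the summed TEAD level per length in all 10 libraries, with 41.4% to 63.2% of it, followed by TEAD4 with 21.5% to 31.4%, TEAD2 with 11.8% to 19.6% and TEAD3 with 3.5% to 8.7%. TEAD1 had the lowest exonic GC content of the 4 (42.9% against 58.9% to 63.3%), and the lowest TEAD1 share was in BRG1-mut library a (41.4%).

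**Figure D2:**
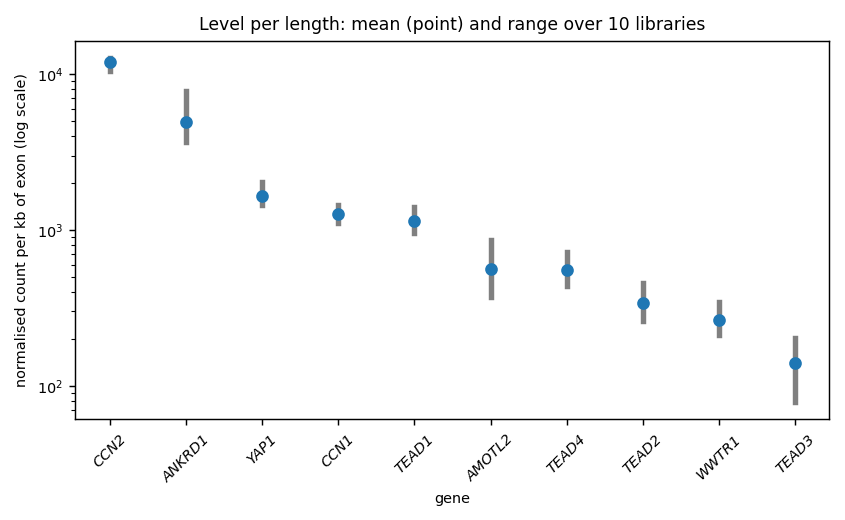
Level per length of the 10 genes (y axis, normalised counts per kb of exon, log scale), in order; points are means and bars the range over 10 libraries. The means ran from 11980 for CCN2 to 141.1 for TEAD3, and the ranges of CCN1 and TEAD1, of AMOTL2 and TEAD4, and of TEAD2 and WWTR1 overlapped.

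The coactivators differed little between groups. YAP1 (chr11:101981178-102104155, + strand, GRCh37) had normalised counts of 10333 and 11207 in control, 9844 and 9150 in BRG1-wt, 9525 and 9776 in BRG1-mut, 11782 and 9148 in BRM-wt and 10769 and 12877 in BRM-mut. Its wild-type and mutant libraries overlapped, and the log2 difference between them was -0.10 (95% interval -0.34 to 0.14, adjusted p = 1.00). WWTR1 (chr3:149235022-149454501, - strand) had 1887 and 2179 in control, 2596 and 2351 in BRG1-wt, 1763 and 2028 in BRG1-mut, 2890 and 2139 in BRM-wt and 2165 and 2222 in BRM-mut. In 3 of the 4 wild-type libraries WWTR1 was above every control and mutant library, and the log2 difference between wild types and mutants was 0.29 (0.02 to 0.57, adjusted p = 0.704), or 0.30 with the GC trend subtracted (adjusted p = 0.0722). YAP1 and WWTR1 have nearly the same exonic GC content (43.3% and 42.6%), and their levels were also set against each other. Per length, YAP1 was 5.02 to 5.66 times WWTR1 in the wild-type libraries, 6.38 to 7.67 times in the mutant libraries and 6.81 to 7.25 times in control. This ratio was chosen after the values of both genes were seen, so it is given as a description, with no test.

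YAP1 was also the only one of the 10 with an exon in the splicing tables, which list cassette exons whose inclusion passed a Bayes factor of 10 between a library and the control of the same replicate number. It was the sixth exon of the canonical transcript (48 bases, chr11:102080248-102080295, + strand, GRCh37), which lies in the coding sequence and lengthens the transactivation domain of the longer YAP isoforms by 16 codons. The exon before it has alternative 5′ splice sites 12 bases apart, which add or omit 4 codons. Both sequences are shown because the inclusion values were estimated separately for the shorter and the longer upstream exon. Capitals mark the cassette exon and the 12 alternative bases, each with 15 flanking bases of the GRCh37 genome (chr11:102080233-102080310 and chr11:102076791-102076832, + strand).
YAP1 cassette exon: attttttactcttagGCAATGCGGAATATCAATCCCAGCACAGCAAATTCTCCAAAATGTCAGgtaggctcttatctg
YAP1 end of the upstream exon: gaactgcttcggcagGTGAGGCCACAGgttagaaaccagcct

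The percent-spliced-in value (PSI, which runs from 0 where the exon is always skipped to 1 where it is always kept) was 0.36 in control replicate 1 with the shorter upstream exon, and 0.50 in BRM-wt and 0.51 in BRM-mut of the same replicate. With the longer upstream exon it was 0.59 in control replicate 2 and 0.45 in BRG1-mut replicate 2. The exon was thus listed as more included with either form of BRM and as less included with BRG1-mut, each in 1 replicate. The other 5 of the 8 tables did not list it, and BRM-wt and BRM-mut were set against the same control library. No test was made, since 2 libraries against 2 cannot give an exact permutation p under 0.333, and the reads behind a PSI are not in the tables, so its depth is unknown.

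**Figure D3:**
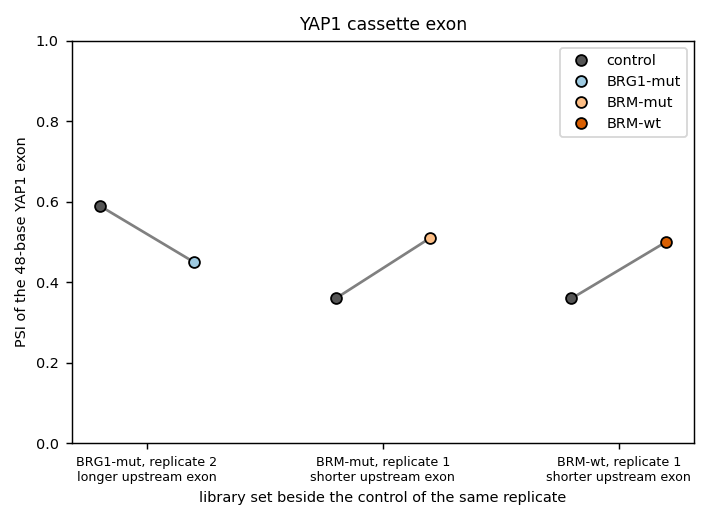
PSI (y axis, 0 to 1) of the 48-base YAP1 exon in the 3 tables that list it; each line joins the control library and the library of the named group with the same replicate number (x axis). PSI was 0.14 lower in BRG1-mut, 0.15 higher in BRM-mut and 0.14 higher in BRM-wt than in the control beside it.

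None of the TEAD genes, which encode the DNA-binding partners, passed the test, and those of high GC content lay above control in BRG1-mut. TEAD1 (chr11:12695968-12966284, + strand) had normalised counts of 12643 and 14198 in control, 11951 and 10509 in BRG1-wt, 10210 and 12101 in BRG1-mut, 12759 and 11393 in BRM-wt and 12349 and 15083 in BRM-mut. Its libraries with BRG1, wild type or mutant, were all below both control libraries, as were 19.5% of all genes in BRG1-wt and 25.5% in BRG1-mut. The log2 difference from control was -0.26 in BRG1-wt (95% interval -0.60 to 0.08) and -0.27 in BRG1-mut (-0.61 to 0.07), against medians of -0.07 and -0.14 for genes within 2 percentage points of its GC content, and it was -0.19 and -0.14 with the trend subtracted.

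TEAD2 (chr19:49843852-49865714, - strand) had 988 and 777 normalised counts in control, 964 and 1076 in BRG1-wt, 1289 and 1100 in BRG1-mut, 829 and 1363 in BRM-wt and 1032 and 784 in BRM-mut. TEAD3 (chr6:35441374-35464856, - strand) had 440 and 306 in control, 435 and 508 in BRG1-wt, 600 and 482 in BRG1-mut, 278 and 616 in BRM-wt and 399 and 239 in BRM-mut. TEAD4 (chr12:3068496-3149842, + strand) had 1309 and 1104 in control, 1245 and 1226 in BRG1-wt, 1647 and 1426 in BRG1-mut, 990 and 1390 in BRM-wt and 1181 and 1094 in BRM-mut. All 3 were above both control libraries in both BRG1-mut libraries, as were 30.2% of all genes, and the 2 BRM-wt libraries lay on either side of both control libraries for TEAD3 and TEAD4, whereas for TEAD2 one lay between the control libraries and one above them. The log2 difference of BRG1-mut from control was 0.44 for TEAD2, 0.55 for TEAD3 and 0.35 for TEAD4, where genes of like GC content had medians of 0.63, 0.70 and 1.10. With the GC trend subtracted the differences turned to -0.15, -0.14 and -0.72, all with adjusted p above 0.95 in that fit. Between wild types and mutants, none of the 4 TEAD genes differed by more than 0.14 on the log2 scale in either direction (TEAD1 -0.08, TEAD2 -0.01, TEAD3 0.09, TEAD4 -0.14), with the widest 95% interval for TEAD3 (-0.57 to 0.74).

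**Figure D4:**
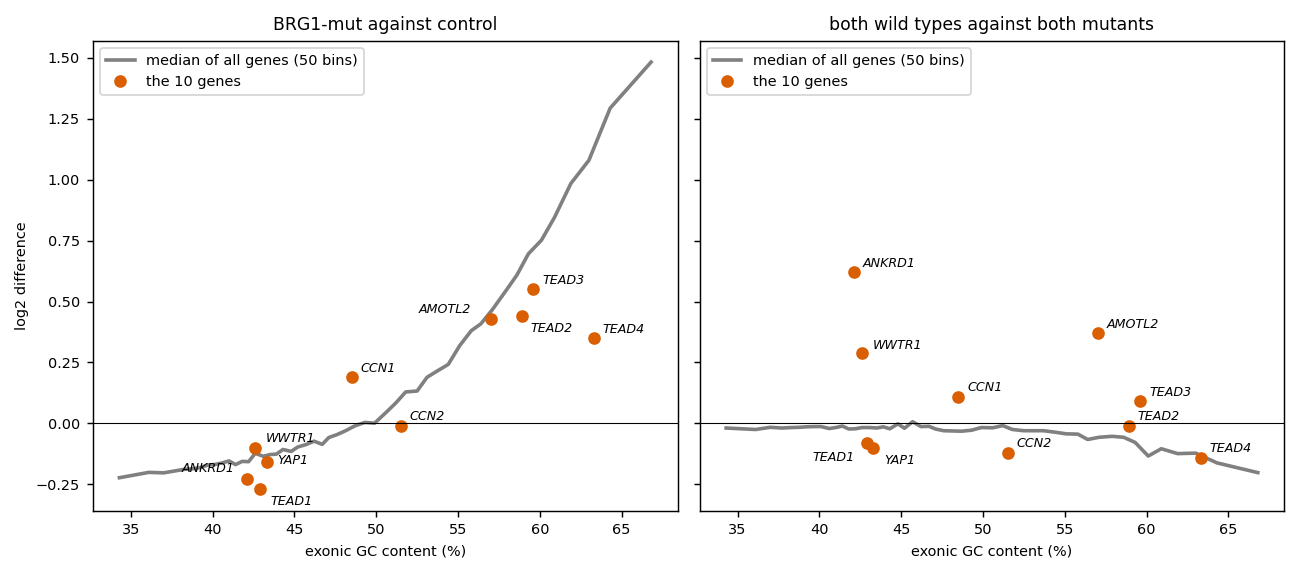
Log2 difference (y axis) against exonic GC content (x axis, %) for BRG1-mut against control (left) and wild types against mutants (right); the line is the median of tested genes in 50 GC bins and points are the 10 genes. On the left the line climbs to 1.48. TEAD2, TEAD3, TEAD4 and AMOTL2 lie below it there, as do YAP1, TEAD1, CCN2 and ANKRD1, while WWTR1 and CCN1 lie above it. On the right the line stays between -0.20 and 0.01 and ANKRD1 lies at 0.62.

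Among the target genes, the promoters of CCN2 and ANKRD1 carry the TEAD sequence repeatedly, and they are shown with that of AMOTL2 because the results on targets below turn on these 3 genes. Each is the 250 bases before a RefSeq transcript start (GRCh38.p14, gene strand, 5′ to 3′), with GGAATG or its reverse complement CATTCC in capitals, searched on both strands, where no overlap was found. The positions are chr6:131951373-131951622 for CCN2, chr10:90921088-90921337 for ANKRD1 and chr3:134374448-134374697 for the second of 2 listed AMOTL2 starts, all on the - strand.
CCN2: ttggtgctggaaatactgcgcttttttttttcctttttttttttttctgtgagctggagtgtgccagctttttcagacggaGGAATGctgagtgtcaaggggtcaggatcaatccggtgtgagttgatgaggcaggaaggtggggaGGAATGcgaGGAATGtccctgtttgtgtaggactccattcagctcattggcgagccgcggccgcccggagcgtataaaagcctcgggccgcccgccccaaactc
ANKRD1: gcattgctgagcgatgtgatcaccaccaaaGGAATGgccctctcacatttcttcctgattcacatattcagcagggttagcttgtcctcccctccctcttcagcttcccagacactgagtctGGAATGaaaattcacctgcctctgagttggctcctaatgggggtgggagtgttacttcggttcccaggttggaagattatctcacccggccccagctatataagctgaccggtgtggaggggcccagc
AMOTL2: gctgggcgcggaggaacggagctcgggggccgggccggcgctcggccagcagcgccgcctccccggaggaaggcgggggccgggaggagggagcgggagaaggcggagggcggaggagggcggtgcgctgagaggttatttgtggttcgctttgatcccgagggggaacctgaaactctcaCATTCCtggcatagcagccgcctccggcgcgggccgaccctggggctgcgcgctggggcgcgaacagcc

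CCN2 held 3 copies, ANKRD1 2 and this AMOTL2 promoter 1. Of 35116 RefSeq promoter windows of 300 bases (250 before and 50 after the start), 14% held at least 1 copy, 1.37% at least 2 and 0.128% at least 3. YAP1 itself held 1 copy, and the windows of WWTR1, TEAD2 and TEAD3 and the first start of AMOTL2 held none. The promoters of 7 of the 10 genes were matched, which leaves CCN1, TEAD1 and TEAD4 not analysed here. A match says only that the letters are there.

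The 2 secreted targets stayed within narrow limits. CCN2 (chr6:132269316-132272512, - strand), with 3 copies, had normalised counts of 29223 and 29473 in control, 26342 and 28798 in BRG1-wt, 29736 and 28704 in BRG1-mut, 24650 and 26475 in BRM-wt and 29386 and 27386 in BRM-mut. Both BRM-wt libraries were below both control libraries, as were 9.45% of all genes, and the log2 difference was -0.20 (95% interval -0.41 to 0.01, adjusted p = 1.00). CCN1 (chr1:86046444-86050272, + strand) had 4463 and 4230 in control, 5358 and 4990 in BRG1-wt, 4955 and 4958 in BRG1-mut, 4243 and 5361 in BRM-wt and 4462 and 4097 in BRM-mut. Its 4 libraries with BRG1 were above both control libraries, with a log2 difference of 0.25 in BRG1-wt (-0.05 to 0.55) and 0.19 in BRG1-mut (-0.11 to 0.49), while the wild types and mutants differed by 0.11 (-0.11 to 0.32). Between wild types and mutants the intervals leave out a change of 1.5-fold for CCN1 and for CCN2 (-0.12, interval -0.27 to 0.03).

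ANKRD1 (chr10:92671853-92680844, - strand), the nuclear ankyrin repeat cofactor, had normalised counts of 7741 and 7900 in control, 10504 and 10899 in BRG1-wt, 6727 and 6597 in BRG1-mut, 14022 and 8972 in BRM-wt and 6872 and 8555 in BRM-mut. Every wild-type library was above every control and mutant library, and both BRG1-mut libraries were below control. The 4 wild-type libraries did not overlap the 4 mutant ones, as in 4.23% of all genes in that direction. The exact two-sided permutation test over them gave p = 0.0286, the smallest possible. That value is fixed by the lack of overlap and so adds nothing to it. The log2 difference between wild types and mutants was 0.62, or 1.54-fold (95% interval 0.29 to 0.95), with an adjusted p of 0.133 over all genes, so the test was not passed. Genes of like GC content had a median of -0.02 in this comparison. With the GC trend subtracted the difference was 0.63 and passed (adjusted p = 0.00674), and it also passed without BRM-wt library b (0.78, adjusted p = 0.00812). By ATPase, the log2 difference of wild type from mutant was 0.68 for BRG1 (0.21 to 1.16, adjusted p = 0.663) and 0.56 for BRM (0.09 to 1.03, adjusted p = 0.814). With only the 4 BRG1 libraries in the fit the first of these passed (adjusted p = 0.0219). Against control ANKRD1 differed by 0.45 in BRG1-wt (-0.02 to 0.92) and 0.53 in BRM-wt (0.06 to 1.00), but by -0.23 in BRG1-mut (-0.71 to 0.25) and -0.03 in BRM-mut (-0.51 to 0.44). The BRM-wt values rested on which library was kept. Against control the difference was 0.20 without BRM-wt library a and 0.84 without library b, and against BRM-mut it was 0.22 and 0.88, none of which passed (adjusted p 0.0568 to 0.481).

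AMOTL2 (chr3:134074189-134094321, - strand), the feedback inhibitor, had 2983 and 3016 normalised counts in control, 4200 and 4355 in BRG1-wt, 4035 and 4052 in BRG1-mut, 2982 and 5566 in BRM-wt and 2702 and 2398 in BRM-mut. It was above control in all 4 libraries with BRG1, whether wild type or mutant, and below control in both BRM-mut libraries, while the BRM-wt libraries were one at control level and one above every other library. The log2 difference from control was 0.51 in BRG1-wt (95% interval -0.07 to 1.10) and 0.43 in BRG1-mut (-0.16 to 1.02). Genes of its GC content (57%) had medians of 0.20 and 0.47 in these comparisons, and with the trend subtracted the differences were 0.32 and -0.03. In BRM-wt it was 0.43 (-0.16 to 1.01) with both libraries, or 0.41 with the GC trend subtracted. It was 0.89 without library a and -0.01 without library b, each resting on 1 BRM-wt library. Library b was also the higher BRM-wt library for TEAD2, TEAD3 and TEAD4, which are of high GC content too. The fit without library a was not repeated with the GC trend subtracted. Without BRM-wt library a the AMOTL2 difference between BRM-wt and BRM-mut was 1.117, again resting on 1 BRM-wt library. The calls given above for the fits without library a were all of AMOTL2. With both libraries it was 0.66 (adjusted p = 0.929), or 0.42 with the GC trend subtracted. Between wild types and mutants it was 0.61 without library a. With all libraries it was 0.37 (adjusted p = 0.915), or 0.38 with the GC trend subtracted.

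**Figure D5:**
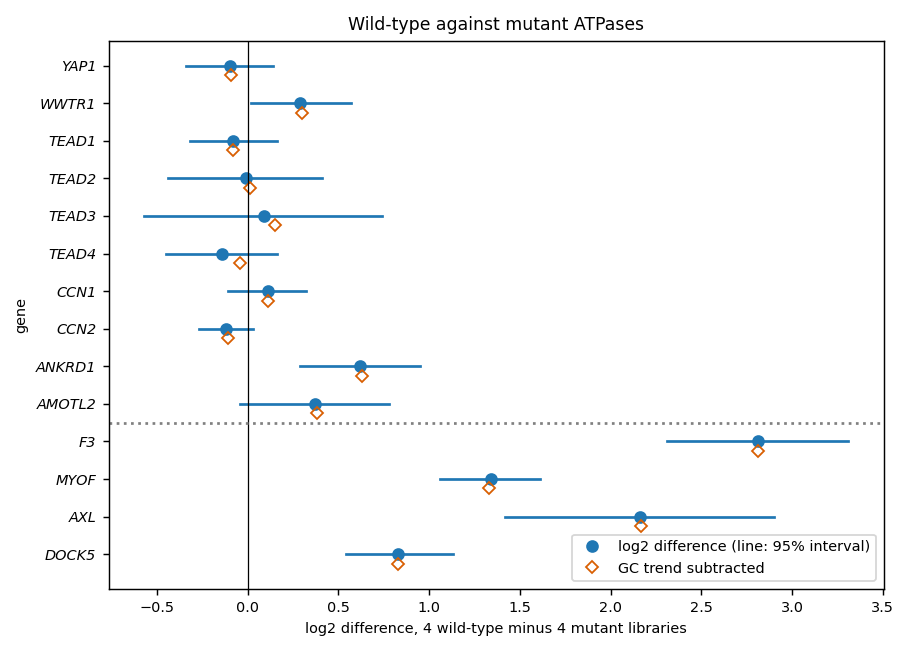
Log2 difference between the 4 wild-type and the 4 mutant libraries (x axis) for the 10 genes and 4 further YAP and TAZ target genes (y axis); circles and lines are the difference with its 95% interval and diamonds the difference with the GC trend subtracted. The 10 genes lie between -0.14 and 0.62, the 4 others between 0.83 and 2.81.

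Of the 10 genes, none passed between BRG1-wt and BRM-wt, where 0% of all genes passed and the members ran from -0.13 to 0.22 on the log2 scale, and none had groups that did not overlap (6.7% of all genes higher and 6.41% lower). None passed between BRG1-mut and BRM-mut either, again with 0% of all genes, although 9 of the 10 did not overlap, 5 higher and 4 lower with BRG1-mut, beside 33.9% and 31.3% of all genes. No gene passed the test for a difference between BRG1 and BRM in the effect of wild type against mutant (0% of all genes). The value was 0.12 for ANKRD1 (95% interval -0.54 to 0.79) and -0.58 for AMOTL2 (-1.40 to 0.25), and both intervals reach past 1.5-fold. The ratios of the authors' mean counts per table, which pool 2 libraries of a group with the 2 control libraries and so understate each difference, were past 1.5-fold for none of the 10. They ran from 0.892 to 1.28 for BRG1-wt over BRG1-mut, 0.944 to 1.32 for BRM-wt over BRM-mut, 0.964 to 1.05 for BRG1-wt over BRM-wt and 0.915 to 1.34 for BRG1-mut over BRM-mut, where 5.1%, 4.72%, 0.547% and 11.7% of all genes were past it. By these means over the 4 tables, the genes nearest to TEAD3 were CDC20P1, TROAP and MRPS18A (Euclidean distance of centred log2 values 0.0109 to 0.0157 among 11894 genes), and those nearest to AMOTL2 were BCL2L1, PLEKHG4B and PINK1 (0.0368 to 0.0529). These are the members with the widest ranges, 1.34-fold and 1.33-fold.

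Other genes of the pathway were counted in 5 lists. Of the Hippo kinase cassette (8 of 8 tested), the upstream and junction regulators (14 of 14), the 14-3-3 proteins (7 of 7), which hold phosphorylated YAP in the cytoplasm, and the vestigial-like TEAD partners (2 of 4), none passed in any comparison. Their median log2 differences between wild types and mutants were -0.03, 0.02, 0.04 and -0.11, where the median of all genes was -0.03. In these lists the only genes with a 1.5-fold range over the authors' means were DCHS1, a protocadherin (10 to 88.5 normalised counts), and SFN, the 14-3-3 sigma gene (3.01 to 57.8), with adjusted p of 1.00 and 0.692 between wild types and mutants. Of 18 other YAP and TAZ target genes, 16 were tested, 4 were higher with the wild types and 0 lower, beside 0.998% and 0.00558% of all genes, with a list median of 0.13. The 10 genes had a median of 0.04. The lists were chosen with earlier results of these data known, so these counts describe the lists and test no enrichment.

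The 4 were F3, MYOF, AXL and DOCK5, the last of which was named after its values were seen. F3, the gene of tissue factor, had normalised counts of 123 and 143 in control, 751 and 706 in BRG1-wt, 94.1 and 131 in BRG1-mut, 1322 and 804 in BRM-wt and 145 and 135 in BRM-mut. MYOF, a membrane repair protein, had 8680 to 12634 in the wild-type libraries and 3327 to 4306 in the other 6. AXL, a receptor tyrosine kinase, had 333 to 630 against 65.3 to 151, and DOCK5, a Rac exchange factor, 1474 to 1959 against 865 to 1110. In none of the 4 did a wild-type library reach down to a control or mutant library. Every wild-type library was above every mutant library in 4.23% of all genes. The 4 are the list genes that passed between wild types and mutants, so their lack of overlap adds no support to that result. The log2 difference between wild types and mutants was 2.81 for F3 (95% interval 2.31 to 3.31, adjusted p = 0.00284), 1.34 for MYOF (1.06 to 1.61, adjusted p = 0.00377), 2.16 for AXL (1.42 to 2.90, adjusted p = 0.0274) and 0.83 for DOCK5 (0.54 to 1.13, adjusted p = 0.0320). F3 and MYOF passed in this comparison under every alternative run. AXL lost its call without BRG1-wt library b, BRM-wt library a or any of the 4 mutant libraries (adjusted p 0.0525 to 0.148), and DOCK5 without either BRG1-wt library or any of the mutant libraries (0.0812 to 0.204). Against control, F3 and MYOF passed in BRG1-wt (2.46 and 1.35) and in BRM-wt (2.98 and 1.65), although in BRG1-wt the calls were lost without any 1 of the 4 libraries and in BRM-wt without either control library (adjusted p up to 0.545). Both also missed the threshold in BRM-wt with only the 4 libraries of that comparison in the fit (0.411 for F3 and 0.421 for MYOF), where 0 genes were called, and with upper-quartile scaling F3 missed it in BRG1-wt (0.0804) and MYOF in both (0.414 and 0.151). Between BRG1-wt and BRG1-mut, F3 passed (2.72, adjusted p = 0.0483) and MYOF did not (1.27, adjusted p = 0.0604). Between BRM-wt and BRM-mut both passed (2.90, adjusted p = 0.0211, and 1.40, adjusted p = 0.0263). AXL and DOCK5 passed in neither, and none of these calls held under every alternative run.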

How the data were processed

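RNA-seq was analysed in 10 libraries of C33A cells, 2 in each of 5 groups. Per the labels and the study's methods, the authors aligned reads with TopHat2 2.0.4 to GRCh37, counted them per gene with HTSeq 0.6.1, with duplicates kept and strand handling not given in the sources used here, and compared each ATPase group with control in DESeq2. Each of 4 deposited tables gives a base mean, a signal that the authors made as the mean of size-factor-normalised counts over 4 libraries, with their own fold changes and p-values, which were not used. The 8 deposited MISO tables give PSI, a fraction, per library for events past the Bayes factor the authors set, with those factors, which were not used either. One further deposited table repeats the BRG1-wt table.

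The 4 weights behind each base mean appeared as the most frequent lowest values, and the 2 shared by all tables (seen alone in 291 and 263 genes) were taken as the control libraries. Whole reads in all 10 libraries were then solved for by lattice reduction (mpmath 1.4.1), with a relative tolerance of 1e-14, for 32105 of 32119 genes. The other 14, all with very high counts, were left out. The method was checked on simulated data, where 30790 of 30790 genes were solved correctly, and size factors recomputed from the reads differed from the weights by at most 0.019%. The design had foreseen only ratios of base means, which are also given, so the per-library test was added after the data were seen. Libraries could be assigned to groups but not to replicate numbers.

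Reads were scaled by median-of-ratios size factors, genes with at least 10 reads in at least 2 libraries were kept (17929), and limma 3.58.1 (R 4.3.3) with voom weights was fitted to all 10 libraries, with Benjamini-Hochberg adjustment at 0.05 over all tested genes. Intervals are 95% and come from that fit. In counts simulated for BRG1-wt against control (17605 genes), 27% of 100 genes changed 1.5-fold and 91% of 100 changed 2-fold were recovered. That simulation gave every gene the same dispersion (0.017) and held no GC trend, so the shares recovered in the real libraries may be lower. The study describes duplicates of transfected cells without saying whether they came from separate cultures, so p-values measure the spread between these libraries, which may be technical. Gene length, GC content and coordinates come from GENCODE v44 lifted to GRCh37. PECAM1, a planned marker, was not analysed here. The 10 genes and the lists were chosen with earlier results of these data known. All 10 genes are named. From the other lists those with the 3 widest ranges of base means, if at least 1.5-fold and with a mean of at least 10, are named. Alternatives covered scaling, filters, a pseudocount of 1, GC content and leaving out each library.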

Additional observations from a re-analysis of the deposited data

Results flagged for a closer look

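ANKRD1 was flagged because both BRG1-wt libraries lay above both control libraries (10504 and 10899 against 7741 and 7900 normalised counts) and both BRG1-mut libraries below them (6727 and 6597), a log2 difference of 0.68 between BRG1-wt and BRG1-mut. AMOTL2 was flagged because both BRG1-mut libraries lay above both control libraries (4035 and 4052 against 2983 and 3016) and both BRM-mut libraries below them (2702 and 2398), a log2 difference of 0.67 between BRG1-mut and BRM-mut that was -0.02 with the GC trend subtracted. Neither difference passed the test across all genes. Such lack of overlap with control was common: 18.1% of all genes lay above it in BRG1-wt and 25.5% below it in BRG1-mut. For the AMOTL2 pattern the shares were 30.2% above control in BRG1-mut and 9.5% below it in BRM-mut. The share of genes that met both conditions of a flag was not computed.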

How the results depend on the processing

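No paired analysis was possible because the tables from which the reads were recovered carry no replicate numbers, and the PSI values come from no test. The per-library fits and their alternatives were chosen after seeing the data. The count of the 10 genes past an adjusted p of 0.05, 0 in every comparison, became 1 for wild types against mutants with the GC trend subtracted (ANKRD1) and 1 for BRG1-wt against BRG1-mut with only those libraries (ANKRD1). Over fits that left out 1 library it ran from 0 to 1 for BRM-wt against control, BRM-wt against BRM-mut and wild types against mutants, and was 0 for the others. The count past 1.5-fold of base means, 0 throughout, was 1 for BRG1-wt against BRG1-mut, 1 for BRM-wt against BRM-mut and 2 for BRG1-mut against BRM-mut at the lower fold threshold tried, and 0 under the other settings. Subtracting the GC trend turned 33 of 100 differences, among them BRG1-mut against control for TEAD2 (-0.15), TEAD3 (-0.14), TEAD4 (-0.72) and AMOTL2 (-0.031). For wild types against mutants TEAD2 became 0.008 with upper-quartile scaling, 0.008 with limma-trend and 0.01 with the GC trend subtracted, and ran from -0.18 to 0.18 over fits without 1 library, TEAD3 from -0.19 to 0.39. AMOTL2 in BRM-wt against control ran from -0.007 to 0.89 over such fits. Upper-quartile scaling moved the median of all genes to -0.26 in BRG1-mut against control and to -0.36 in BRG1-mut against BRM-mut, and DOCK5 missed the threshold under it (adjusted p = 0.276). All genes past the threshold ran from 0 to 113 between BRG1-wt and BRG1-mut (14 in the fit reported) and from 0 to 153 between BRM-wt and BRM-mut (30), and those between wild types and mutants, 180, ran from 27 (without BRG1-mut library a) to 470 (GC trend subtracted). The cause was not tested. The YAP1 exon, listed in 3 tables, was listed in 1 without replicate 1, in 2 without replicate 2, in 0 when both replicates of a group were asked for, and in 0 where PSI had to differ by 0.2 or more.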

Other observations

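The splicing tables hold 5191 listings in all, and the few in other pathway genes named here were chosen after their values were seen. GADD45A, a stress-response gene on the list of YAP and TAZ targets, had a 102-base exon (chr1:68151708-68151809, + strand, GRCh37) listed in both BRM-wt replicates in opposite directions, with a PSI of 0.49 against 0.08 in control replicate 1 and of 0.04 against 0.19 in control replicate 2. In BRG1-mut the same exon was more included in both replicates (0.34 against 0.08 and 0.42 against 0.19). It was also listed as more included in BRG1-wt replicate 1 (0.17 against 0.08). AMOTL1, a relative of AMOTL2, had a 150-base exon at a PSI of 0.66 in BRM-wt against 0.90 in control replicate 1, and NF2, which encodes the Hippo activator merlin, an 86-base exon at 0.28 in BRM-mut against 0.16 in control replicate 2.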
